A study of Mus musculus with 6 samples.

Results

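A group of 9 transcription factors known for keeping hematopoietic stem cells (HSCs) in a self-renewing state were followed in HSCs that lack the ribosomal protein Rpl22. They are Mecom, Hlf, Prdm16, Meis1, Erg, Etv6, Gfi1, Gata3 and Nkx2-3, taken by gene symbol from a table of 34573 genes, in which all 9 were found and all 9 had enough reads for a test. HSCs were sorted from mouse bone marrow as lineage-negative cells positive for c-Kit, Sca-1 and CD150 and negative for CD48. This gate enriches long-term repopulating cells, and poly(A) RNA was sequenced in 3 Rpl22-/- and 3 Rpl22+/+ samples. The Rpl22-/- mice carry a germline deletion, so every cell of the body lacks the gene from the start of life, and both genotypes were young adults on a C57BL/6 background with no treatment. The labels do not say whether the samples of a genotype came from separate mice, so the p-values measure the spread between these samples only. The comparison asks whether loss of Rpl22 goes with another level of the factors that hold HSCs in self-renewal.

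These factors act on overlapping sets of enhancers in the stem cell genome and many are switched down as cells commit to a lineage. Mecom and Prdm16 are related zinc finger proteins of the PRDM family that recruit corepressors and chromatin modifiers. Meis1 is a homeobox protein that binds DNA together with Pbx and Hox proteins, Hlf is a basic leucine zipper protein of the PAR family whose expression marks HSCs, and Erg and Etv6 are ETS factors, the first mainly an activator and the second a repressor. Gfi1 is a zinc finger repressor that restrains HSC proliferation, Gata3 is a GATA factor best known from T cells and innate lymphoid cells that also bears on HSC cycling, and Nkx2-3 is a homeobox protein best known from the vessels of gut and spleen.

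None of the 9 factors passed the test between genotypes. With p-values from edgeR's quasi-likelihood fit, adjusted by Benjamini and Hochberg's method, 0 of 9 fell below 0.05, in a comparison that called 5.57% of the 14004 genes tested (3.28% higher and 2.29% lower in Rpl22-/- HSCs). DESeq2 and limma-voom also called 0 and 0 at an adjusted p below 0.05. At an unadjusted p below 0.05 the count was 3 of 9 in edgeR, against 22.3% of all genes tested. It was 2 in DESeq2 and 3 in limma-voom. Levels are given as CPM, the count of a gene after scaling every library to 1000000 reads on genes, with edgeR's TMM factors. In 3 of 9 the CPM ranges of the genotypes were separate, with Etv6 higher and Hlf and Mecom lower in Rpl22-/- HSCs, and such separation was seen in 26.9% of all genes tested. Both shares of members rest on 3 genes and stand near those backgrounds. The estimates ran from −0.19 to 0.25 on the log2 scale with a median of 0.01, beside −0.00677 for all genes tested, and their median size without sign was 0.17 beside 0.16. All 9 of the 95% intervals, which are not adjusted for the number of genes, lay between a ratio of 0.741 and a ratio of 1.54 of Rpl22-/- to Rpl22+/+ HSCs.

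The deleted gene was read first as a check of the labels. Reads on Rpl22 numbered 449, 527 and 546 in Rpl22-/- HSCs as against 6890, 7001 and 5031 in Rpl22+/+ HSCs, and edgeR estimated a log2 fold change of −3.75 with an adjusted p of 2.97e-12. Between 9321123 and 13385850 reads per library lay on genes. The 9 factors together took between 0.208% and 0.224% of them in every library, and these shares overlapped between genotypes. HSC markers were present in every library, among them Procr and also Kit and Slamf1 (CD150), which belong to the sort gate. Of 12 markers 1 was called, Fgd5, which was lower in Rpl22-/- HSCs (log2 fold change −0.41, adjusted p = 0.0308 in edgeR). That call did not hold without Rpl22-/- replicate 2 or 3 or without any one of the Rpl22+/+ replicates (adjusted p from 0.0525 to 0.154 in edgeR).

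Start-site windows show what sequence lies at the promoters of the 3 factors with separate CPM ranges, and why a gene's count joins several transcripts for Mecom. RefSeq (GRCm38.p6, the same coordinates as mm10) gave 13 windows for the 9 members, each running from 250 bases before to 50 bases after an annotated start. Mecom has 2 such windows, the upstream start of the Mds1-Evi1 form and the downstream start of the short Evi1 form, which lacks the PR domain. Capitals mark an ETS core (CGGAAG) or a GC box (GGGCGG), on either strand, in the windows below, each written 5′ to 3′ in the direction of the gene.
Etv6, chr6:134035450-134035749, forward strand: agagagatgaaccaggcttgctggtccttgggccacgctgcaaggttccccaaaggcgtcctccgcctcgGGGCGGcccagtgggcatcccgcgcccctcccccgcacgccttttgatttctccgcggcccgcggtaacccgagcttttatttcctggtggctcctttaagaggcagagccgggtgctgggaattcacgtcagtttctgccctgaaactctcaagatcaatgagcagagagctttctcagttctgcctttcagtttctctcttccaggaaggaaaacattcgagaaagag
Hlf, chr11:90390868-90391167, reverse strand: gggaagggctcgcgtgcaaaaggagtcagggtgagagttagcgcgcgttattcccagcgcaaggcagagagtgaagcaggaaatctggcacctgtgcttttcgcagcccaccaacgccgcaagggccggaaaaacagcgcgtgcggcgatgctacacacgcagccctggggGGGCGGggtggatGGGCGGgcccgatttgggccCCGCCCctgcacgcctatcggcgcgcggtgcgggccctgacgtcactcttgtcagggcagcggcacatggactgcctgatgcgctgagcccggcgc
Mecom upstream start, chr3:30509710-30510009, reverse strand: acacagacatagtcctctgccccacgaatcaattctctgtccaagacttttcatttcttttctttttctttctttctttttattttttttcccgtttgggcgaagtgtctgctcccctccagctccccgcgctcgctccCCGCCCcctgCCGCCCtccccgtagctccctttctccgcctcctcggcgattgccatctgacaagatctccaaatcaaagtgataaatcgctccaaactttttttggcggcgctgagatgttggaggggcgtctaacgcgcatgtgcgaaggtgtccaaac
Mecom downstream start, chr3:30013155-30013454, reverse strand: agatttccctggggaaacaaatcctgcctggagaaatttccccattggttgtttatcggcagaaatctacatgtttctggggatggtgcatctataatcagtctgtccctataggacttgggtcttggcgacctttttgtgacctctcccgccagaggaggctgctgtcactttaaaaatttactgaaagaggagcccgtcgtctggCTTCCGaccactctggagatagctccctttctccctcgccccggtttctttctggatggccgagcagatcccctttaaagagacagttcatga

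The windows of these factors differed in the short motifs they held. The Hlf window had 3 GC boxes, the Mecom upstream window had 2 and the Etv6 window had 1, while the Mecom downstream window had none and held the only ETS core of the 4. Over all 13 member windows the GC box was found in 7, against 35.7% of 32851 mouse windows of the same length. The ETS core was found in 3 of 13 (Mecom downstream, Gfi1 and Meis1), against 16.9% of all windows. The other 3 motifs were searched on both strands, the GATA motif AGATAA (1 of 13, an Erg window, against 11.2%), the RUNX motif TGTGGT (1 of 13, Meis1, against 16.8%) and the E-box CAGCTG (1 of 13, Gata3, against 16.3%). No match overlapped another in the 4 windows shown. A match is a description of these letters and does not show binding.

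Mecom, the PRDM factor that adult HSCs need for long-term repopulation, had lower values in all 3 Rpl22-/- libraries, a difference that did not pass the test. The gene (ENSMUSG00000027684) spans 596.7 kb of chromosome 3 in GRCm38, 29951296 to 30548008, and is read from the reverse strand. Its CPM was 143, 133 and 140 in the Rpl22-/- and 156, 155 and 157 in the Rpl22+/+ replicates, each given here and later in the order of replicates 1, 2 and 3. The Rpl22+/+ libraries lay almost at 1 level, and all 3 Rpl22-/- libraries lay below them. Means of 139 ± 5.47 and 156 ± 0.783 CPM (SD, n = 3 each) gave a log2 fold change of −0.17 (95% interval −0.34 to −0.002, adjusted p = 0.221 in edgeR). The count joins the transcripts from both starts shown above, so a change of one form against the other cannot be read from it.

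Prdm16, the closest relative of Mecom, which also maintains HSCs and is known from brown fat, overlapped between genotypes. Its CPM was 58.5, 48.1 and 52.3 in the Rpl22-/- replicates and 60.1, 52.1 and 69.8 in the Rpl22+/+ replicates. The highest value belonged to Rpl22+/+ replicate 3 and the lowest to Rpl22-/- replicate 2. The log2 fold change was −0.19 (95% interval −0.43 to 0.05, adjusted p = 0.337 in edgeR). Prdm16 (ENSMUSG00000039410) lies on chromosome 4 from 154316125 to 154636873 on the reverse strand, 1982.1 kb from the deleted Rpl22. In such a linked place the effect of losing Rpl22 and that of chromosome segments carried along with the targeted allele cannot be told apart. Of 9 tested genes lying between Rpl22 and Prdm16, 1 was called (11.1%, beside 5.57% of all genes tested), and their median log2 fold change was 0.054. The called gene, Arhgef16, was at a mean of 7.83 CPM in Rpl22-/- and 1.35 CPM in Rpl22+/+ HSCs and was named after its values were seen.

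**Figure D1:**
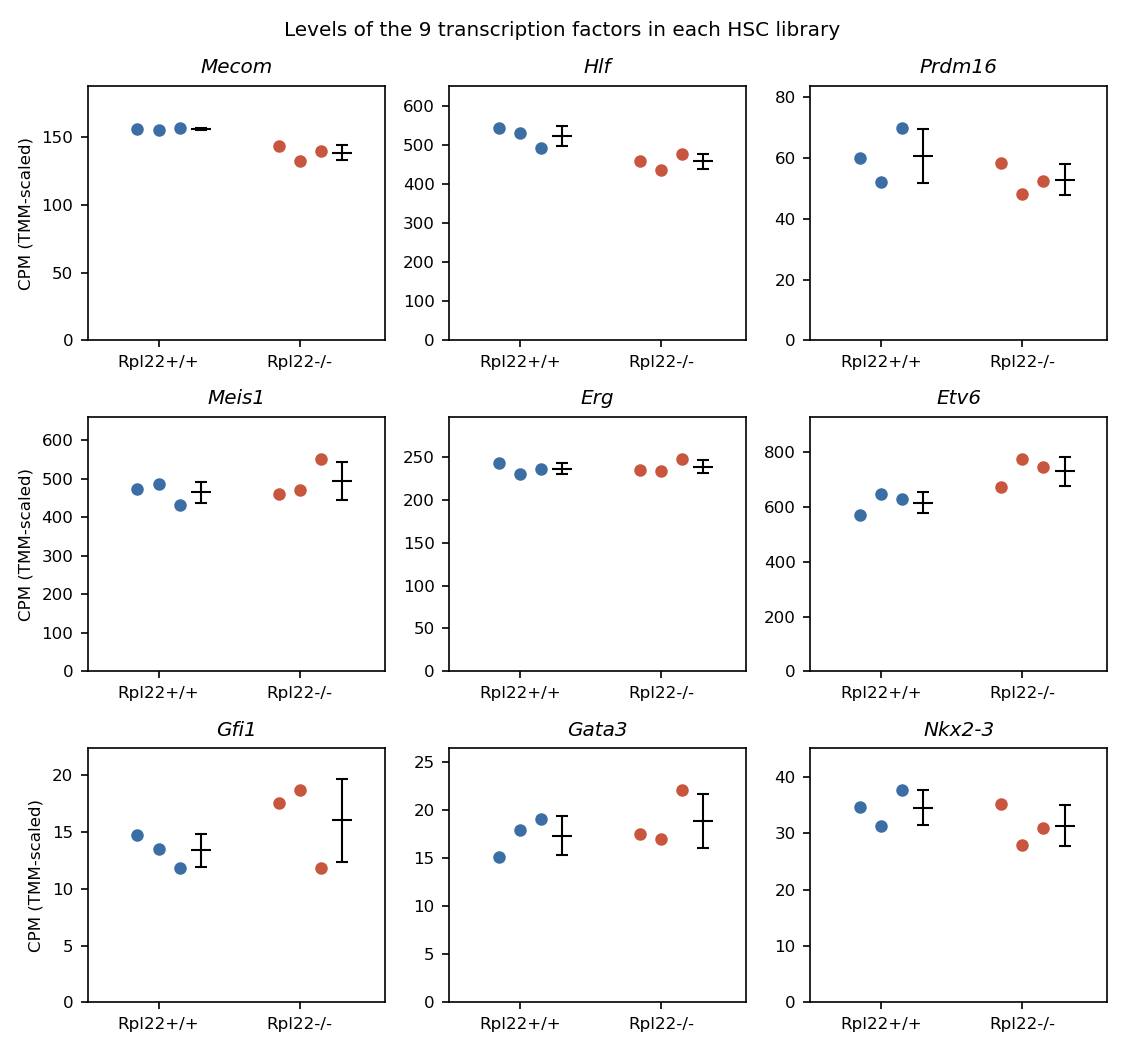
Level in CPM (y axis, from 0) of each of the 9 factors, 1 panel per gene, with 1 point per library for Rpl22+/+ (blue) and Rpl22-/- (red) HSCs and a black bar for mean ± SD over 3 libraries. The 3 Rpl22-/- points lie above all Rpl22+/+ points for Etv6 and below them for Mecom and Hlf, and the points overlap in the other 6 panels.

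Hlf, whose reporter expression sets HSCs apart from their progeny, was the second factor with lower values in all 3 Rpl22-/- libraries. The gene (ENSMUSG00000003949) lies on chromosome 11 from 90336536 to 90390895 on the reverse strand. Its CPM was 460, 437 and 477 in the Rpl22-/- replicates and 542, 532 and 493 in the Rpl22+/+ replicates. The nearest libraries of the genotypes, Rpl22-/- replicate 3 and Rpl22+/+ replicate 3, were 477 and 493 CPM. Means of 458 ± 19.97 and 522 ± 26 CPM (SD, n = 3 each) gave a log2 fold change of −0.19 (95% interval −0.37 to −0.01, adjusted p = 0.210 in edgeR).

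Meis1, the homeobox partner of Hox and Pbx proteins, had the widest spread relative to its mean in Rpl22-/- HSCs (SD 9.99% of the mean) of the 4 most abundant factors. The gene (ENSMUSG00000020160) lies on chromosome 11 from 18879817 to 19018985 on the reverse strand. Its CPM was 460, 470 and 550 in the Rpl22-/- replicates and 474, 486 and 433 in the Rpl22+/+ replicates. Rpl22-/- replicate 3 stood highest and Rpl22+/+ replicate 3 lowest, and the other 4 libraries lay between 460 and 486 CPM. The log2 fold change was 0.09 (95% interval −0.12 to 0.29, adjusted p = 0.637 in edgeR), and without Rpl22-/- replicate 3 it was 0.003. A pair of antisense RNAs within the body of Meis1 were tested as well, Gm16140 and Gm16141, and neither was called. Gm16140, whose exons overlap those of Meis1, was at 21.1 ± 1.69 CPM in Rpl22-/- and 16.1 ± 1.49 CPM in Rpl22+/+ HSCs (SD, n = 3, log2 fold change 0.39, adjusted p = 0.0989 in edgeR), and Gm16141 was estimated at 0.49 on the log2 scale (adjusted p = 0.335 in edgeR). The strand setting of the counting is not given in the sources used here, so reads of a gene and of its antisense partner may not have been separated.

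Erg, an ETS activator required to keep adult HSCs, had the estimate nearest to 0 of the 9. The gene (ENSMUSG00000040732) lies on chromosome 16 from 95359169 to 95586593 on the reverse strand. Its CPM was 235, 233 and 247 in the Rpl22-/- replicates and 242, 230 and 236 in the Rpl22+/+ replicates. All 6 libraries lay between 230 and 247 CPM. The log2 fold change was 0.01 (95% interval −0.16 to 0.18, adjusted p = 0.945 in edgeR) and turned to −0.03 with library size alone as the scaling.

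Etv6, the ETS repressor that adult marrow HSCs need to survive, had the smallest p of the 9 and was the only factor with higher values in all 3 Rpl22-/- libraries. The gene (ENSMUSG00000030199) lies on chromosome 6 from 134035700 to 134270158 on the forward strand. It had 8610, 9288 and 9796 reads in the Rpl22-/- replicates, or 671, 773 and 744 CPM. In the Rpl22+/+ replicates it had 7447, 8053 and 6025 reads, or 572, 646 and 627 CPM. The gap between the genotypes was narrow, from 646 CPM in Rpl22+/+ replicate 2 to 671 CPM in Rpl22-/- replicate 1. Means of 729 ± 52.6 and 615 ± 38.5 CPM (SD, n = 3 each) gave a log2 fold change of 0.25 (95% interval 0.05 to 0.44, adjusted p = 0.130 in edgeR). Without Rpl22-/- replicate 1, the lowest of the knockout libraries, the log2 fold change was 0.31 and the adjusted p was 0.0382 in edgeR. This was the only fit of 18 alternatives in which a member was called. With all libraries the adjusted p of Etv6 was 0.0569 in DESeq2. The highest of the alternatives was 0.416, in edgeR without Rpl22+/+ replicate 1. Samples in groups of 3 against 3 allow no exact two-sided permutation p below 0.1 for a single gene.

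Gm17089, an antisense RNA whose exons overlap those of Etv6, was not called and overlapped between genotypes. Its CPM was 38.4, 55.5 and 55.8 in the Rpl22-/- replicates and 32.7, 38.2 and 41.1 in the Rpl22+/+ replicates. Rpl22-/- replicate 1 lay below Rpl22+/+ replicate 3, and the log2 fold change was 0.42 (adjusted p = 0.0829 in edgeR). Antisense partners of Prdm16 and Gata3, Gm13133 and Gm13256, had no more than 21 and 20 reads in any library, with log2 fold changes of −0.29 and 0.46 (adjusted p = 0.727 and 0.616 in edgeR).

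Ratios taken within a library do not depend on how libraries were scaled. Reads on Etv6 divided by reads on Hlf were 1.46, 1.77 and 1.56 in the Rpl22-/- replicates and 1.06, 1.22 and 1.27 in the Rpl22+/+ replicates. Etv6 over Mecom was 4.68, 5.83 and 5.31 in the Rpl22-/- replicates and 3.66, 4.17 and 4.003 in the Rpl22+/+ replicates. In both ratios every Rpl22-/- library stood above every Rpl22+/+ library. This follows by arithmetic from the separate CPM ranges of Etv6, Hlf and Mecom and is not a further result. The pairs were chosen after their values were seen, so no test is given. Mecom over Hlf was 0.312, 0.304 and 0.294 against 0.288, 0.292 and 0.318, which overlap.

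The 3 factors with the fewest reads, Gfi1, Gata3 and Nkx2-3, all overlapped between genotypes. Gfi1 (ENSMUSG00000029275, chromosome 5 from 107716657 to 107726036, reverse strand) had 17.5, 18.6 and 11.9 CPM in the Rpl22-/- replicates and 14.7, 13.5 and 11.9 CPM in the Rpl22+/+ replicates. Replicate 3 of each genotype was lowest, and the log2 fold change of 0.25 had the widest interval of the 9, −0.12 to 0.63 (adjusted p = 0.424 in edgeR). Its smallest count, 114 reads, carries a counting error of 9.37% on its own. Without Rpl22-/- replicate 3 the estimate was 0.43 and without Rpl22-/- replicate 2 it was 0.13.

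Gata3 (ENSMUSG00000015619, chromosome 2 from 9857078 to 9890034, reverse strand) had 17.5, 17 and 22 CPM in the Rpl22-/- replicates and 15.1, 17.9 and 19 CPM in the Rpl22+/+ replicates. Its log2 fold change was 0.13 (95% interval −0.19 to 0.44, adjusted p = 0.671 in edgeR), and it was −0.001 without Rpl22-/- replicate 3. Nkx2-3 (ENSMUSG00000044220, chromosome 19 from 43612325 to 43615892, forward strand) had 35.2, 28 and 30.8 CPM in the Rpl22-/- replicates and 34.6, 31.3 and 37.6 CPM in the Rpl22+/+ replicates. Its log2 fold change was −0.14 (95% interval −0.39 to 0.12, adjusted p = 0.545 in edgeR), and it was −0.22 and −0.06 without Rpl22-/- replicates 1 and 2 and −0.075 without Rpl22+/+ replicate 3. For both genes each genotype held one of the libraries that stood highest or lowest, and neither set stood apart.

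**Figure D2:**
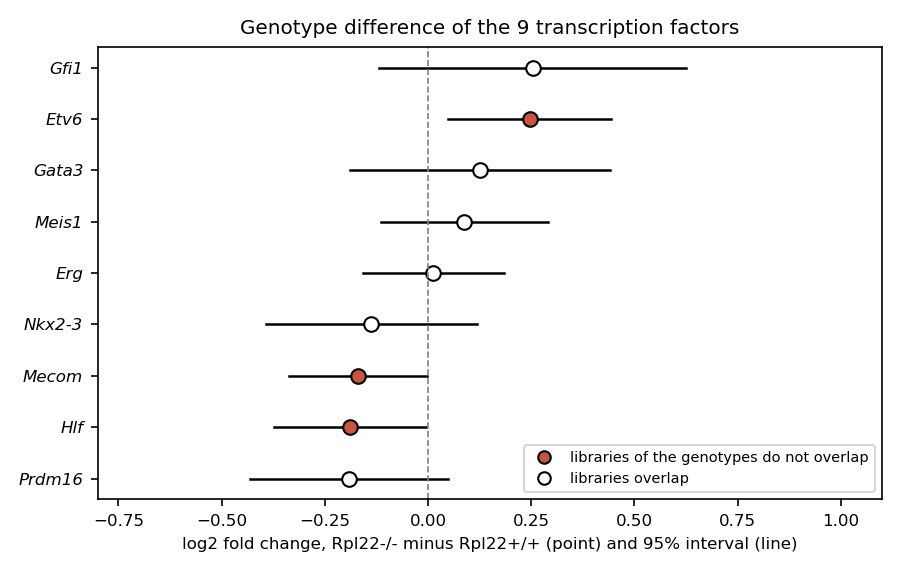
Log2 fold change (x axis, Rpl22-/- minus Rpl22+/+) of each factor with its 95% interval from edgeR's fit, filled where the genotypes had separate CPM ranges. The points run from −0.19 for Prdm16 to 0.25 for Gfi1, and the interval of Etv6 is the one that lies above 0.

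Per length of exon, the factors covered a wide range of levels within HSCs. In Rpl22+/+ HSCs Etv6 stood highest at 103 ± 6.44 RPKM (CPM divided by the length of the merged exons in kilobases, SD, n = 3), followed by Hlf at 78.2 ± 3.90, Erg at 68.1 ± 1.76 and Meis1 at 44.1 ± 2.63 RPKM. A lower group held Nkx2-3 at 16.3 ± 1.48, Mecom at 12.6 ± 0.063 and Prdm16 at 6.51 ± 0.952 RPKM. Gata3 at 4.36 ± 0.516 and Gfi1 at 4.19 ± 0.454 RPKM came last, and Etv6 was 24.6 times as high as Gfi1. The libraries of each neighbouring pair in this order lay apart in Rpl22+/+ HSCs, except Gata3 and Gfi1, which overlapped.

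In Rpl22-/- HSCs Etv6, Meis1, Nkx2-3, Mecom and Prdm16 held the same ranks. Etv6 stood at 122 ± 8.79 RPKM (SD, n = 3). Erg at 68.7 ± 2.14 and Hlf at 68.5 ± 2.99 RPKM could not be placed apart, since their libraries overlapped, whereas in Rpl22+/+ HSCs every Hlf library was above every Erg library. At the low end Prdm16, Gfi1 and Gata3 overlapped in turn at 5.68 ± 0.558, 5.02 ± 1.14 and 4.74 ± 0.696 RPKM. Lengths are those of all annotated exons merged, so a gene whose long exons are little used in HSCs reads low on this scale.

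**Figure D3:**
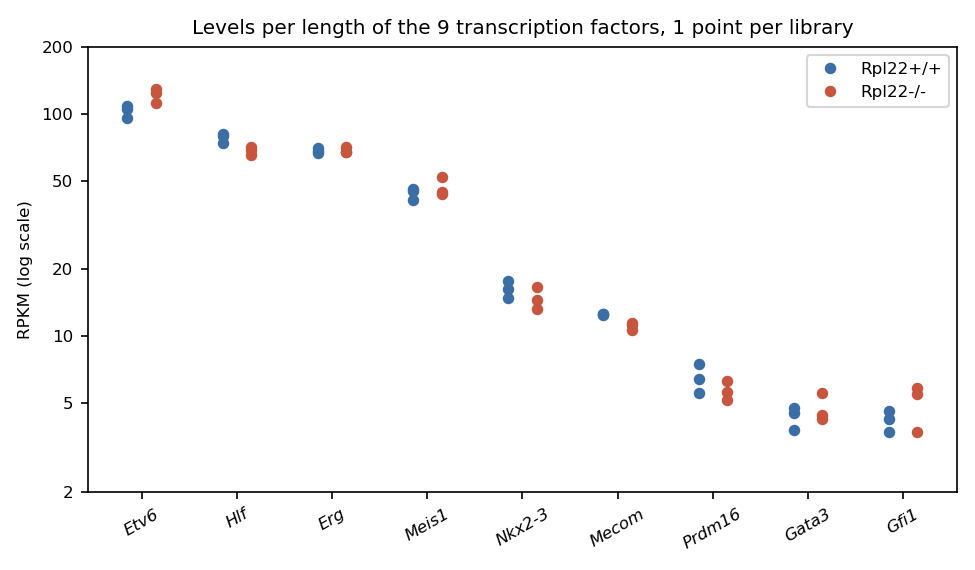
RPKM (y axis, log scale) of each factor in each library, ordered by the Rpl22+/+ mean, with Rpl22+/+ in blue and Rpl22-/- in red. Etv6, Hlf, Erg and Meis1 lie between 41.1 and 129 RPKM in all 6 libraries and the other 5 factors at 17.8 RPKM or below.

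The genes around these factors were read from lists of known partners, relatives and targets. Together they held 89 genes, of which 83 were tested, 4 were called higher and 1 lower in Rpl22-/- HSCs, a share of 6.02% beside the 5.57% of all genes. Gata2 stands in 3 of the lists, as relative, reported target and HSC factor.

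Among 22 partners and cofactors, all tested, 1 was called higher and none lower by edgeR, with a median log2 fold change of 0.06. The call was Zfpm1 (FOG-1), the cofactor of GATA proteins. It had 327, 402 and 342 CPM in the Rpl22-/- replicates and 265, 286 and 248 CPM in the Rpl22+/+ replicates. Every Rpl22-/- value exceeded every Rpl22+/+ value (log2 fold change 0.42 with a standard error of 0.0972, adjusted p = 0.0213 in edgeR). The call was lost without Rpl22-/- replicate 2 or 3 or any one Rpl22+/+ replicate (adjusted p from 0.0504 to 0.101 in edgeR) and, at a log2 fold change of 0.24, with the trend on GC content removed (adjusted p = 0.204). With length and GC trends removed the adjusted p in edgeR was 0.135, and 0.0801 with a term for replicate number as well.

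Among 25 relatives from the same families, 21 were tested, and Etv5 and Gata2 were called higher and none lower by edgeR, with a median log2 fold change of 0.06. Etv5, an ETS activator downstream of growth factor signalling, had 43.1, 50.7 and 50.7 CPM in the Rpl22-/- replicates and 33.2, 39.5 and 33.6 CPM in the Rpl22+/+ replicates (log2 fold change 0.44, adjusted p = 0.0313 in edgeR). Gata2, the GATA factor that HSCs depend on, had 454, 462 and 520 CPM in the Rpl22-/- replicates and 364, 357 and 372 CPM in the Rpl22+/+ replicates (log2 fold change 0.39, standard error 0.0876, adjusted p = 0.0190 in edgeR). For both genes the Rpl22-/- libraries lay above all Rpl22+/+ libraries. Etv5 was not called without Rpl22-/- replicate 2 or 3 or Rpl22+/+ replicate 1 or 3 (adjusted p from 0.0897 to 0.140 in edgeR) nor with the GC trend (0.0548) or both trends removed (0.0504), and Gata2 was not called without Rpl22-/- replicate 3 or any one Rpl22+/+ replicate (adjusted p from 0.0638 to 0.0947 in edgeR) nor with the GC trend removed (0.0599).

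Among 15 genes reported as targets of the factors, all tested, Gata2 and Cdkn1a were called higher and none lower by edgeR, with a median log2 fold change of 0.08. Cdkn1a encodes the cell cycle inhibitor p21, is repressed by Gfi1 and is also a standard p53 target. It had 9.43, 15.5 and 13.3 CPM in the Rpl22-/- replicates and 2.30, 1.69 and 2.6 CPM in the Rpl22+/+ replicates, with an estimate of 2.54 on the log2 scale (95% interval 2.01 to 3.07, adjusted p = 7.56e-05 in edgeR). It was called in all 18 alternatives, with log2 fold changes from 2.38 to 2.72. Its level was several times higher in each Rpl22-/- library than in any Rpl22+/+ library. The part of Gfi1 or of p53 in the level of Cdkn1a was not tested.

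Among 35 other HSC transcription factors, 33 were tested, Gata2 was called higher and Ikzf2 lower, and the median log2 fold change was 0.01. Ikzf2, the Ikaros family protein Helios, had 75.0, 58.6 and 66.3 CPM in the Rpl22-/- replicates and 87.6, 89.4 and 103 CPM in the Rpl22+/+ replicates. Every Rpl22-/- value was below every Rpl22+/+ value (log2 fold change −0.48 with a standard error of 0.102, adjusted p = 0.0154 in edgeR). The call was lost without replicate 3 of either genotype (adjusted p = 0.0747 without the Rpl22-/- and 0.0734 without the Rpl22+/+ library in edgeR) and with length and GC trends removed (log2 fold change −0.29, adjusted p = 0.104). It was lost too in edgeR with the GC trend alone removed (adjusted p = 0.0688) and with both removed and a term for replicate number (0.0971).

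**Figure D4:**
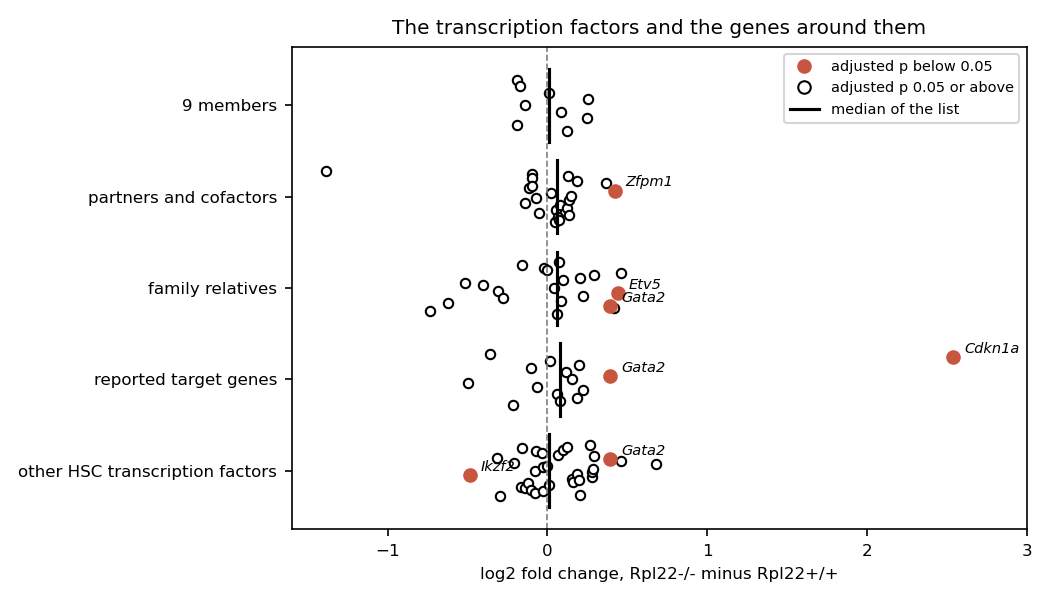
Log2 fold change (x axis, Rpl22-/- minus Rpl22+/+) of each tested gene in the 9 members and 4 lists around them, with called genes filled and named and a bar at each list's median. The called genes are Zfpm1, Etv5, Gata2, Cdkn1a and Ikzf2, and all 5 medians lie between 0.01 and 0.08.

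The 3 genes named here followed the profile of Etv6 most closely over the 6 libraries. Of 10645 genes at an average log2 CPM of at least 3, Vti1a, a vesicle SNARE protein, had a root mean square difference of 0.0159 on the centred log2 scale. It was followed by Pros1, which encodes the anticoagulant protein S, at 0.0247 and by Ndrg1, a stress-responsive gene, at 0.0250. Like Etv6, none of them was called (adjusted p = 0.194, 0.211 and 0.194 in edgeR).

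Some markers of other blood lineages moved with genotype, and some were all but absent. Of 6 megakaryocyte markers 4 were called higher in Rpl22-/- HSCs (Pf4, Itga2b, Gp1ba and Gp9), and the list summed to between 982 and 1240 CPM in the Rpl22-/- libraries and between 712 and 927 CPM in the Rpl22+/+ libraries. Itga2b, the most abundant of them, was 0.51 higher on the log2 scale (adjusted p = 0.0115 in edgeR). All 4 calls were lost without Rpl22+/+ replicate 1 (adjusted p from 0.0772 to 0.199 in edgeR), and the number called was 3, 2 and 1 without Rpl22-/- replicates 1, 2 and 3 and 3 and 1 without Rpl22+/+ replicates 2 and 3. It was 2 with library size alone and with the length trend, the GC trend or both removed, and 3 in DESeq2. HSCs express several of these genes themselves. In bulk samples a different mix of cells and a different amount of RNA per cell cannot be told apart, and the part of these markers in the levels of Etv6, Hlf, Mecom, Gata2 or Zfpm1 was not tested.

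Of 8 neutrophil markers 1 was called, Camp, which was higher in Rpl22-/- HSCs at under 4 CPM in every library (log2 fold change 2.43, adjusted p = 0.0291 in edgeR). It was not called without Rpl22-/- replicate 2 or 3 or Rpl22+/+ replicate 2 or 3 (adjusted p from 0.0780 to 0.148 in edgeR), nor in limma-voom (adjusted p = 0.0557). With length and GC trends removed its adjusted p in edgeR was 0.0523, and 0.0737 with a term for replicate number as well. The list summed to between 96.5 and 211 CPM in the Rpl22-/- and between 66.1 and 104 CPM in the Rpl22+/+ libraries. Mpo stood at 13.9, 101 and 17.1 CPM in the Rpl22-/- replicates, against 1.46, 5.78 and 20.5 CPM in the Rpl22+/+ replicates. Elane stood at 3.51, 20.2 and 2.74 CPM against 0.307, 0.642 and 5.10 CPM. Both overlapped between genotypes. Their estimates were 2.33 and 2.24 on the log2 scale, and neither was called (adjusted p = 0.0642 and 0.097 in edgeR). Of the 8 estimates 7 lay above 0, all but that of S100a8 (−0.212), and the list's median was 1.53 on the log2 scale. Prtn3, the most abundant of the list by mean, differed little, at 66.9 CPM in Rpl22-/- and 63.4 CPM in Rpl22+/+ HSCs (estimate 0.081, adjusted p = 0.751 in edgeR). Gfi1, a neutrophil factor too, was highest in Rpl22-/- replicate 2. Within each genotype Gfi1 was lowest in replicate 3. The part of these markers in the level of Gfi1 was not tested.

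Of the markers of T cells and innate lymphoid cells, where Gata3 is abundant, only Cd4 and Rora reached 1 CPM in any library. Cd3e and Trac had 0 reads in every library, and Cd3d, Cd3g, Il7r and Klrg1 stayed below 1 CPM. The T cell list summed to between 3.35 and 6.07 CPM, most of it Cd4. The innate lymphoid list summed to between 15.6 and 21.5 CPM in the Rpl22-/- and between 22.8 and 30.9 CPM in the Rpl22+/+ libraries. Most of it was Rora, which was lower in all 3 Rpl22-/- libraries (log2 fold change −0.48, adjusted p = 0.0945 in edgeR). Whether Rora was read from such cells or from HSCs was not tested. The part of these markers in the level of Gata3 was not tested. Erg is also expressed in endothelium, and of 5 endothelial markers Cdh5 stayed below 0.1 CPM, while the other 4, Tie1 (220 to 264 CPM), Pecam1 (53.9 to 78.9 CPM), Emcn (24.9 to 30.8 CPM) and Kdr (5.77 to 11.1 CPM), were detected in every library. The list summed to between 330 and 366 CPM in the Rpl22-/- and between 322 and 370 CPM in the Rpl22+/+ libraries, none of the 4 was called, and Pecam1 was higher in all 3 Rpl22-/- libraries (adjusted p = 0.155 in edgeR). The part of these markers in the level of Erg was not tested. None of the genes tested from the B cell, erythroid, mast cell or multipotent progenitor lists was called, their most abundant markers being Cd79b, Epor, Cpa3 and Cd34, and stromal markers summed to no more than 3.13 CPM. Cxcl12 was the most abundant of these in Rpl22+/+ HSCs, through 2.33 CPM in replicate 2, and Col1a1 in Rpl22-/- HSCs.

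Removing each library's trend on gene length and GC content moved 6 members by over 1.5 times. With both trends removed the log2 fold change was −0.06 for Mecom and −0.12 for Hlf, smaller than before, and 0.23 for Meis1 and −0.27 for Nkx2-3, larger than before. Gfi1 came to 0.17, and Erg to −0.03 with its sign turned. Etv6 stayed at 0.27. No member was called in any fit with a trend removed. Across all 18 alternatives Etv6 stayed between 0.20 and 0.31, Hlf between −0.23 and −0.12, Mecom between −0.21 and −0.06 and Prdm16 between −0.29 and −0.08. Meis1 ran from 0.003 to 0.23, Gfi1 from 0.13 to 0.43 and Nkx2-3 from −0.28 to −0.06. These 7 kept their sign throughout, while Erg and Gata3 did not.

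**Figure D5:**
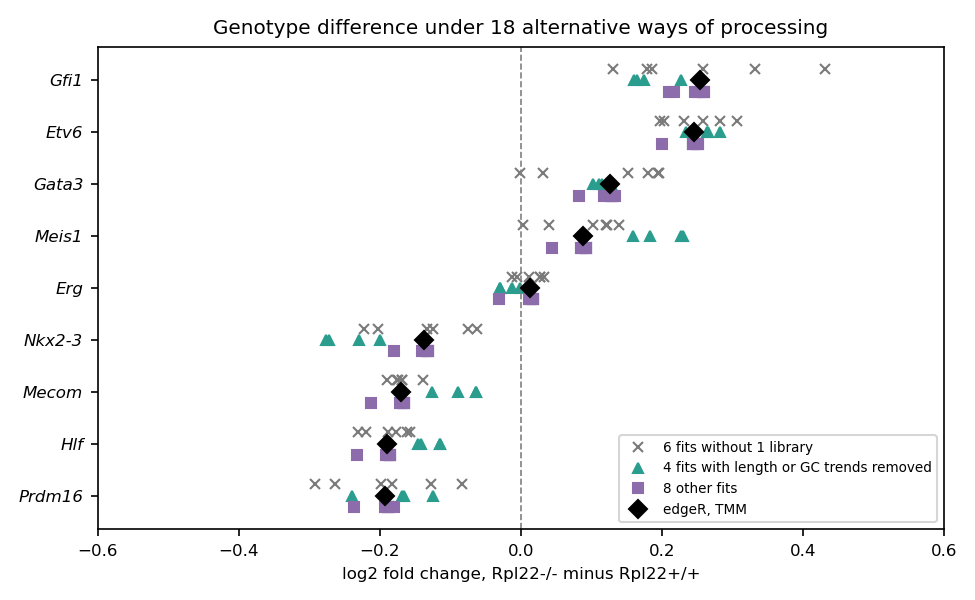
Log2 fold change (x axis, Rpl22-/- minus Rpl22+/+) of each factor with edgeR and TMM (black diamond) and in 18 alternatives, with fits without 1 library as crosses, fits with a length or GC trend removed as triangles and the others as squares. Mecom, Hlf and Prdm16 stay below 0 and Etv6 and Gfi1 above it in every fit, and Erg lies on both sides.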

How the data were processed

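Reads were aligned by the authors to the mouse genome (mm10) with TopHat2 2.1.1 and counted per gene with HTSeq, per the labels and the methods of the study, and the deposited table holds whole-number counts without normalization for 6 HSC libraries. The annotation and strand setting are not given in the sources used here. The lines in which HTSeq totals unassigned reads, 58.6% to 60.9% of the counts, entered neither library sizes nor tests. Counts were filtered with filterByExpr (minimum count 10), scaled by TMM and compared between genotypes with the quasi-likelihood test of edgeR 4.0.16 (R 4.3.3), with Benjamini-Hochberg adjustment over 14004 genes. Depth was 9321123 to 13385850 gene counts per library, and precision rests on 3 libraries per genotype.

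Positions and exon lengths came from GENCODE's GRCm38 annotation (29042 symbols matched directly, 1836 by an older symbol, 3695 unmatched). Alternatives were other scaling factors, DESeq2 1.42.0, limma-voom (limma 3.58.1), other filters, each library left out, a term for replicate number, and removal of trends on length or GC content (lowess, span 0.3). The tests were first tested on simulated data. The members, the lists and the motifs were chosen with earlier results of these data known. Named genes are all members, Rpl22, the called genes of each list, the most abundant or called markers of other cells, tested genes overlapping a member and the 3 profiles nearest to Etv6, and HSC or absent markers named beside them were chosen after their values were seen. Mpo, Elane and S100a8 were also named after their values were seen. The older symbol Sfpi1 was added for Spi1 after the counts were seen. Results for some listed genes are not reported here. Tables and plots were made in Python 3.11.15 with pandas 2.3.3, numpy 2.4.6 and matplotlib 3.10.9.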

Additional observations from a re-analysis of the deposited data

How the results depend on the processing

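Of 9 members, 0 were called in 17 of 18 alternatives and 1, Etv6, without Rpl22-/- replicate 1, so that leaving out a library gave 0 to 1. All genes called numbered 780, 1422 without a filter on low counts, 510 with the GC trend removed and 504 with length and GC trends removed, and 127 (without Rpl22-/- replicate 3) to 1720 (without Rpl22-/- replicate 1) when a library was left out, where fewer samples were fitted. The members' median log2 fold change, 0.013, was −0.031 with library size alone, −0.029 with both trends removed and −0.030 with both removed together with the replicate block. Erg, at 0.013, turned to −0.031 with library size alone, −0.001 with the length trend removed, −0.012 with the GC trend removed, −0.029 with both and −0.030 with both and the replicate block, and leaving out a library gave Erg −0.012 to 0.033 and Gata3 −0.001 to 0.196. Calls in the lists ranged over all alternatives from 0 to 2 for partners, 0 to 4 for relatives, 1 to 4 for targets and 0 to 6 for other HSC factors. With the replicate block 904 genes and 0 members were called, 2 partners and 4 other HSC factors. Same-numbered libraries of the genotypes correlated at −0.103, 0.055 and 0.045 in their deviations, and the other pairs at −0.171 to 0.132. These values gave no sign of a pairing by number but cannot exclude one. Where a setting moved a value, the cause was not tested.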
